A study of Mus musculus with 2 samples.

Results

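NRF3 belongs to the cap'n'collar (CNC) family of transcription factors, and the genes described here are Nfe2l3, which encodes it, and 9 genes for its relatives, DNA-binding partners and processing. The relatives are Nfe2l1 (NRF1), Nfe2l2 (NRF2), Bach1 and Bach2, the partners are the small MAF genes Maff, Mafg and Mafk, and Keap1 and Ddi2 encode factors that act on CNC proteins. The genes were chosen by name and role, with no threshold on a measured value, but with earlier results of these data known. Of these 10, 9 carried a probe set with a gene symbol, out of 19505 named genes on the array. Ddi2, which encodes the protease that cleaves NRF1 and NRF3, had no probe set of that name and is given no value. Each of the 9 genes had 1 probe set.

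The NRF3 group was B16F10 cells transfected with an NRF3 expression plasmid, and the GFP group was the same line transfected with a GFP expression plasmid. B16F10 is a pigmented mouse melanoma line. Both populations also received a puromycin resistance vector, were selected with puromycin and were then treated for 5 days with forskolin, which activates adenylate cyclase and raises cAMP. All cells had forskolin, so forskolin is shared and its own effect is not compared. The labels do not say which species' NRF3 the plasmid carried, which promoter drove it, or whether the selected cells were a pool or a clone. Each group had 1 single-colour array, so the number of arrays limits the precision and the differences carry neither errors nor p-values.

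CNC proteins bind DNA as heterodimers with small MAF proteins, at antioxidant response elements and related sites. Small MAF proteins lack a transactivation domain, so the CNC partner sets whether a bound gene is activated, as by NRF1, NRF2 and NRF3, or repressed, as by BACH1 and BACH2. NRF2 is held in the cytoplasm by KEAP1, which presents it to a CUL3 ubiquitin ligase. NRF1 and NRF3 are instead made as proteins of the endoplasmic reticulum membrane. They are extracted by the p97 ATPase and cut by DDI2 before they reach the nucleus. NRF1 is best known for restoring proteasome gene expression when the proteasome is inhibited, and NRF2 for antioxidant genes.

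All values are log2 expression values on the deposited scale, made with the robust multi-array average (RMA). Levels of different probe sets cannot be set against each other, so each gene is compared only with itself on the other array. A gene was called detected when its brighter value reached 5.89, the median over all named probe sets, and 10162 genes met this. All 9 genes did. This floor was set by rule, since no background was measured for each probe set. The 5222 control rows with neg in their names are called neg controls here, though what they measure is not stated. They had a median of 6.37 on the NRF3 array and 6.12 on the GFP array, and upper quartiles of 7.85 and 7.52 in the same order. Their values ran from 1.96 to 19.5 on the NRF3 array and from 2.06 to 18.8 on the GFP array. Some of these rows are thus as bright as the brightest genes, and they are a yardstick and not a measured background. The 23 control rows named for background at a given GC number ran from 2.65 to 8.16 on the NRF3 array and from 2.65 to 7.11 on the GFP array. All 7 melanocyte lineage markers were detected, between 13.1 and 18.9 on the NRF3 array and between 11.7 and 18.9 on the GFP array. Their differences ran from -0.56 to 1.41. At least 1.5-fold higher in NRF3 cells were 2 of the 7, Tyr and Mitf, against 17% of all detected genes. At least 1.5-fold lower were 0, against 23.6%. None of the 11 named markers of epithelium, leukocytes, fibroblasts and endothelium reached the floor on either array. Of the erythroid and megakaryocyte markers 1 was named, Itga2b, with 6.54 on the NRF3 array and 7.11 on the GFP array, both below the neg controls' upper quartiles.

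Nfe2l3 was the gene with the largest difference of the family. Its log2 value was 10.1 on the NRF3 array and 6.04 on the GFP array, a difference of 4.11, or 17.2-fold. The value on the NRF3 array lay above all 23 GC control rows, and 5.88% of the neg controls reached it. On the GFP array, 10 of the 23 GC rows and 51.8% of the neg controls lay at or above it. The GFP value is thus at the level of control rows, and the fold depends on that level. In bulk RNA, more cells that carry the transcript and more transcript per cell cannot be told apart.

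Of the 10162 detected genes, 3 had a difference at least as high as that of Nfe2l3, itself included, and 22 had one at least as large in either direction. The 20 nearest detected genes on chromosome 6 had a median difference of -0.25, and all 524 detected genes of that chromosome one of -0.01. With 2 arrays, a gene's pattern is a single difference. The detected genes nearest to Nfe2l3 by that measure were Sema6d at 4.02, Pde8a at 3.79 and Aass at 4.62. Pde8a, with 3.59, and Aass, with 4.18, lay under the floor on the GFP array and were detected only through the NRF3 array. Since the GFP value of Nfe2l3 is at the level of control rows too, this order depends on background. Sema6d encodes a transmembrane semaphorin, Pde8a a cAMP phosphodiesterase and Aass an enzyme of lysine breakdown.

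**Figure D1:**
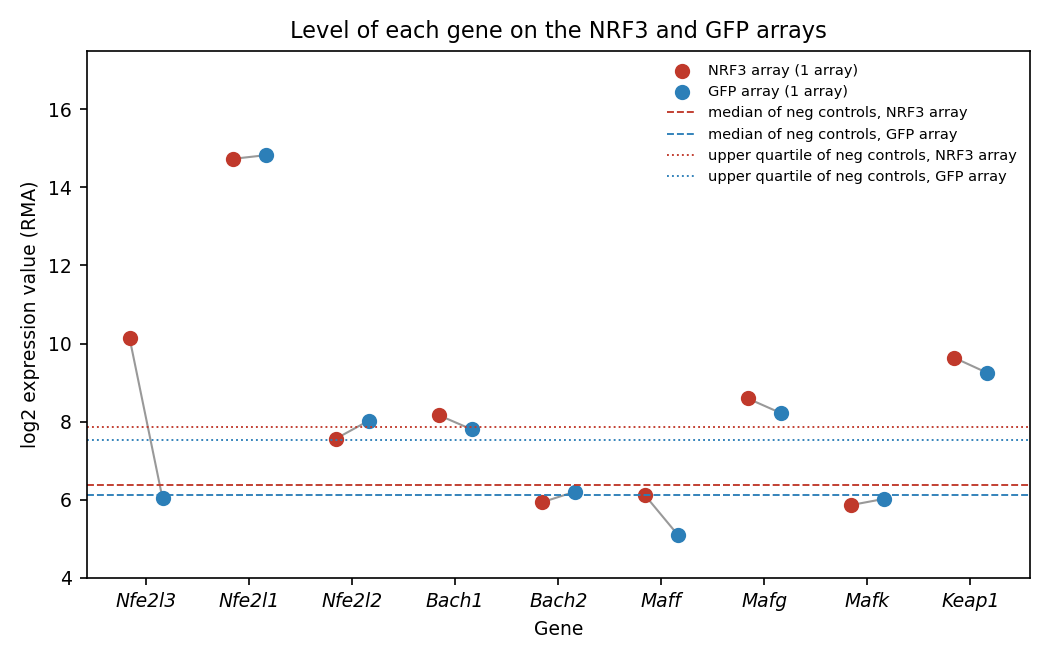
Log2 expression value of each of the 9 measured genes on the NRF3 array (red, left) and the GFP array (blue, right), 1 array each and so without error bars. Dashed lines are the medians (6.37 and 6.12) and dotted lines the upper quartiles (7.85 and 7.52) of the neg controls on the NRF3 and GFP arrays; Nfe2l3 alone is far apart between the arrays, and Bach2, Maff and Mafk lie near or below the dashed lines. Heights of different genes are not comparable.

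The relatives and partners differed far less than Nfe2l3. With a rule of size of at least 1.5-fold, which is not a test, 2 of the 9 genes were higher in NRF3 cells, Nfe2l3 and Maff, and 0 were lower. Maff counts as detected only through its NRF3 value, since its GFP value lay under the floor, and both of its values lay at the level of the neg controls. Of the 10162 detected genes as a whole, 17% passed the rule on the higher side and 23.6% on the lower side. Nfe2l3 is the gene named on the plasmid label, so these shares are no yardstick for its call under any rule of size. A 2-fold rule called the same 2 genes higher and 0 lower, against 6.75% and 11% of all detected genes. A looser rule, a log2 difference of at least 0.32, called 5 higher and 1 lower, against 28.2% and 36.1%. Without Nfe2l3, the gene named on the plasmid label, the other 8 genes had a median difference of 0.13, against -0.07 over all detected genes. They divided evenly, with Maff, Keap1, Mafg and Bach1 above 0 and Nfe2l1, Mafk, Bach2 and Nfe2l2 below it.

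Among the activators, Nfe2l1 was close to level between the populations. Its log2 value was 14.7 on the NRF3 array and 14.8 on the GFP array, a difference of -0.10. Under 1% of the neg controls reached it on either array (0.63% on the NRF3 array and 0.57% on the GFP array). Of all detected genes, 89.2% had a difference at least as large in either direction. Centring each array on its median over the detected genes turned the value to 0.03. That centring moved the median over all detected genes from -0.07 to 0.05. Subtracting the median of the 20 nearest detected genes on chromosome 11 left it at -0.10.

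Nfe2l2 lay on the lower side in NRF3 cells. It had 7.56 on the NRF3 array and 8.02 on the GFP array, a difference of -0.46, or 1.38-fold lower. Its NRF3 value was reached by 29.2% of the neg controls and so lay below their upper quartile, and its GFP value lay above that of the GFP array. Of the detected genes, 29.1% had a difference as low or lower. The 20 nearest detected genes on chromosome 2 had a median of 0.17, and relative to them Nfe2l2 differed by -0.63.

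Of the repressor genes, Bach1 was above the neg controls' upper quartile on both arrays and Bach2 was not. Bach1, whose product occupies heme oxygenase and other heme-regulated genes until heme releases it, had 8.17 on the NRF3 array and 7.80 on the GFP array, a difference of 0.36. Bach2, which is best known for its part in B and T lymphocytes, had 5.93 on the NRF3 array and 6.21 on the GFP array, a difference of -0.27. The NRF3 value of Bach2 was below the neg controls' median, and its GFP value just above that of its array, so its difference is one between values at the level of control rows. On the log2 scale, Bach1 moved up relative to Nfe2l2 by 0.83, a sum of both genes' differences with no replicate behind it.

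Keap1 was higher by 0.39 in NRF3 cells. It had 9.64 on the NRF3 array and 9.25 on the GFP array, or 1.31-fold. On both arrays it lay above all 23 GC rows and above the upper quartile of the neg controls. The 20 nearest detected genes on chromosome 9 had a median of -0.41, and relative to them Keap1 was higher by 0.80. Keap1 and Nfe2l2, the repressor and its target, moved apart by 0.85 on the log2 scale. Of the detected genes, 25.1% had a difference as high as that of Keap1 or higher.

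**Figure D2:**
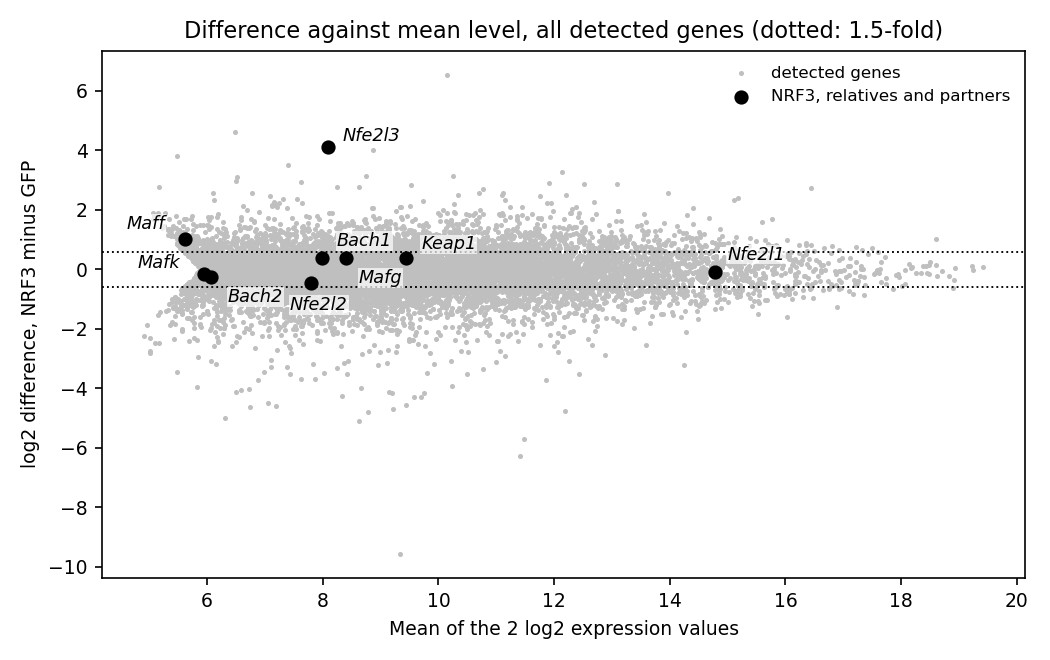
Log2 difference, NRF3 minus GFP, against the mean of the 2 log2 values, for all 10162 detected genes (grey) and the 9 measured genes (black, named). The dotted lines mark 1.5-fold either way; Nfe2l3 at 4.11 and Maff at 1.02 lie above the upper line and the other 7 lie between the lines, inside the cloud of detected genes.

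Of the small MAF genes, Mafg was the one measured above the level of control rows. Maff had 6.12 on the NRF3 array and 5.10 on the GFP array, a difference of 1.02, or 2.03-fold. Mafg had 8.59 on the NRF3 array and 8.22 on the GFP array, a difference of 0.37. Mafk had 5.86 on the NRF3 array and 6.02 on the GFP array, a difference of -0.16. Mafg lay above the upper quartile of the neg controls on both arrays. Both values of Maff and of Mafk were under the medians of those rows.

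For Maff, 55.0% of the neg controls reached its NRF3 value and 71.2% its GFP value. Its difference therefore rests on values at the level of control rows. Over all detected genes, 6.48% had a difference as high or higher. The neg controls had a median row-by-row difference of 0.27 between the arrays, and the part of background in the difference of Maff was not tested. Around Maff on chromosome 15 the 20 nearest detected genes had a median of -0.45, and around Mafg on chromosome 11 one of -0.29. Relative to these neighbours, Maff was higher by 1.47 and Mafg by 0.67, while Mafk, on chromosome 5, differed by -0.09.

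The promoters of the family are shown because MAF and NRF2 genes can be bound by the factors they encode. RefSeq promoter windows (build GRCm38.p6) run from 250 bases before to 50 bases after a transcription start, and all 10 genes had at least 1, 16 windows in all. The core of the antioxidant response element was searched as TGACNNNGC on both strands. It was found in 4 of the 10 genes, Nfe2l2, Maff, Mafg and Mafk. Of all 27025 genes with a window, 14.0% held it, and of all 32851 windows, 12.4%. The windows with a match are printed 5' to 3' on the gene's strand, with the core in capitals. The last of them is a second Maff start, where the capitals mark the full cAMP response element TGACGTCA, which 1.79% of all windows hold.
Nfe2l2 (chr2:75704614-75704913, minus strand): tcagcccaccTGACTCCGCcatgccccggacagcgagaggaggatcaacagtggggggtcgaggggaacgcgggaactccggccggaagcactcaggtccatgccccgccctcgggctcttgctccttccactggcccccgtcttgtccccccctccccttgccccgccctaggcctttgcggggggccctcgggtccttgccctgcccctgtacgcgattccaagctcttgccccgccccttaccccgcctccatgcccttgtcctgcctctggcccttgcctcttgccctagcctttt
Maff, first start (chr15:79346371-79346670, plus strand): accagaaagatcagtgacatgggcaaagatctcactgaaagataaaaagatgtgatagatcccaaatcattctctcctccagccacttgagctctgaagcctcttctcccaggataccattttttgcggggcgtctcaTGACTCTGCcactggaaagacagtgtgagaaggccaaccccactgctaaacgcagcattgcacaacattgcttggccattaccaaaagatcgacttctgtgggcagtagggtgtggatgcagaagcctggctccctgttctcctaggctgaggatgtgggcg
Mafg (chr11:120633498-120633797, minus strand): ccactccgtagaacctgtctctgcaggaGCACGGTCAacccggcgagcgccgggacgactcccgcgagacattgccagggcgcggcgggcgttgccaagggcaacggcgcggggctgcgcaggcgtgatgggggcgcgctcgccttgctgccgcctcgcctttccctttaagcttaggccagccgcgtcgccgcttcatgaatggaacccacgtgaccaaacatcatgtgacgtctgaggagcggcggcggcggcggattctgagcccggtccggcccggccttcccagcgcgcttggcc
Mafk (chr5:139791286-139791585, plus strand): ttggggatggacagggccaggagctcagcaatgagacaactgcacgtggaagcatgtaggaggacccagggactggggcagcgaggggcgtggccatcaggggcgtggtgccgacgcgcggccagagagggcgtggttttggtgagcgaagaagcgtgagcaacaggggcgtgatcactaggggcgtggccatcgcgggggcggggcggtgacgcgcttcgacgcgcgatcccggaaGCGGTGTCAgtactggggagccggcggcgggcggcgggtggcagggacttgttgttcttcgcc
Maff, second start (chr15:79347270-79347569, plus strand): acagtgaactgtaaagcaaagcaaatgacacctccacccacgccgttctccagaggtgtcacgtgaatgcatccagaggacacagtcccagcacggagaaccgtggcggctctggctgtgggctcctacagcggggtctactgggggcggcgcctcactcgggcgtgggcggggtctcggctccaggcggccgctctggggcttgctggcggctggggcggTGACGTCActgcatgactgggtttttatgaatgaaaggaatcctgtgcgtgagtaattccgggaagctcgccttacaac

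In the Nfe2l2 window the core read TGACTCCGC and began 240 bases before the start. In the first Maff window it read TGACTCTGC and began 112 bases before the start. The cores of Mafg, TGACCGTGC, and Mafk, TGACACCGC, lay on the opposite strand, with their leftmost bases 222 and 13 bases before the start. The Mafk core is thus the one nearest to a start. The genes with a core had differences of -0.46 (Nfe2l2), 1.02 (Maff), 0.37 (Mafg) and -0.16 (Mafk). Those of Maff and Mafk rest on values at the level of control rows, and each gene reached the floor on 1 array only, so their signs show no direction. The windows of Nfe2l3, Bach1, Bach2 and Keap1 held none of the letters searched. The 5 windows of Nfe2l1 held no antioxidant core, and the first of them held 2 copies of TGACG, the short form of the cAMP response element, which is part of the full element.

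Short forms were also found in Ddi2, Mafk, Mafg and the second and the third Maff window, 5 of the 10 genes in all, where 23.0% of all genes held one. The full cAMP response element of the second Maff window began 29 bases before the start and is made of 2 overlapping short forms on opposite strands. The MITF E-box, searched as CATGTG on both strands, was found in the Mafg window, 26 bases before the start, and in the third Maff window, 49 bases before. Of all genes, 15.9% held CATGTG. The related letters CACGTG were not searched, and they occur in the printed windows of Mafg, Mafk and the second Maff start. MITF is the main regulator of the melanocyte lineage. No member window held the AP-1 element TGACTCA, which 5.95% of all genes held. A match is a run of letters and not a shown binding site, and the arrays do not tell which start a transcript used.

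**Figure D3:**
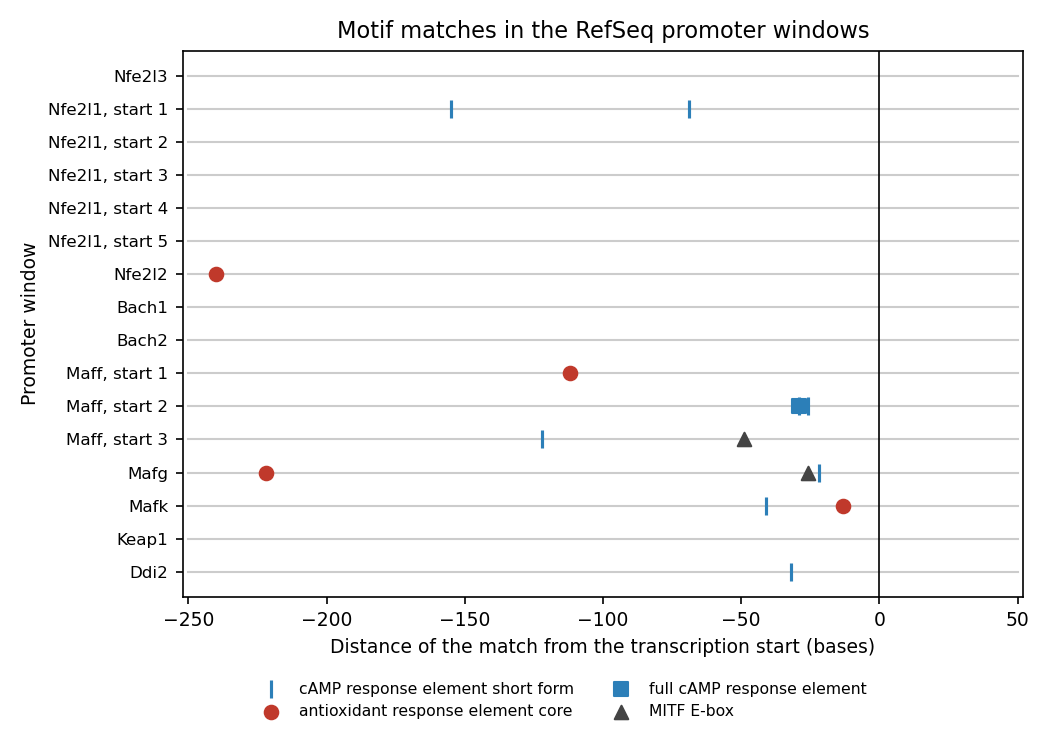
Position of each motif match, in bases from the transcription start (vertical line at 0), in the 16 RefSeq promoter windows of the 10 genes, each a grey line from 250 bases before to 50 after the start. Circles mark the antioxidant response element core, squares the full cAMP response element, short bars its short form and triangles the MITF E-box; antioxidant cores appear in Nfe2l2, Mafg, Mafk and the first Maff window.

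Other bZIP relatives were mostly undetected. Of a list of 6 genes, 5 had a named probe set and 2 were detected. Nfe2, another member of the CNC family, had 4.92 on the NRF3 array and 4.33 on the GFP array, both under the floor. The large MAF gene Nrl was under the floor too, with 5.39 on the NRF3 array and 4.51 on the GFP array, and so was Mafa, with a difference of -0.32. Maf had 6.56 on the NRF3 array and 3.79 on the GFP array, a difference of 2.77. The NRF3 value lay between the median and the upper quartile of the neg controls, and the GFP value below the floor, so its size depends on background. Maf lies on chromosome 8, where its 20 nearest detected genes had a median of 0.85. Nfil3, a bZIP repressor outside the CNC family, differed by -0.11.

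A list of 10 genes for extraction and cleavage of NRF1 and NRF3 at the endoplasmic reticulum held 8 detected genes. Of these, 5 passed the 1.5-fold rule on the higher side in NRF3 cells, against 17% of all detected genes, and 0 on the lower side, against 23.6%. Their median difference was 0.74, against -0.07 over all detected genes. Vcp, which encodes p97, had 14.5 on the NRF3 array and 13.5 on the GFP array, a difference of 0.98. Ngly1, the cytosolic glycanase that removes sugar chains from extracted NRF1, had 7.78 on the NRF3 array and 6.82 on the GFP array, a difference of 0.95. Both values of Ngly1 stayed below the upper quartiles of the neg controls. The lowest were Derl1 at 0.28 and Sel1l at 0.53, both parts of the membrane complex that passes proteins out of the endoplasmic reticulum. Ddi1, the paralog of Ddi2, was not detected, with 5.52 on the NRF3 array and 5.23 on the GFP array.

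Of 14 detected genes for turnover and binding of CNC proteins, 3 passed the rule on the higher side, near the 17% of all detected genes, and 1 on the lower side, against 23.6%. Their median was 0.20, against -0.07 over all detected genes. Fbxw7, a ubiquitin ligase subunit that marks NRF1 and NRF3 for degradation, was higher by 1.04, from values of 7.40 on the NRF3 array and 6.36 on the GFP array, both under the upper quartiles of the neg controls. Sqstm1, which encodes the autophagy receptor p62 that binds KEAP1, was higher by 0.81, with 16.6 on the NRF3 array and 15.8 on the GFP array. Cul3, the scaffold of the KEAP1 ligase, had 11.0 on the NRF3 array and 11.8 on the GFP array, a difference of -0.85. Its 20 nearest detected genes on chromosome 1 had a median of -0.46. Btrc, of the ligase that marks phosphorylated NRF2, differed by -0.58. For the ligase that acts on NRF2, Keap1 and Cul3 thus differed in opposite directions, at 0.39 and -0.85, and Rbx1, its RING subunit, by -0.33. The 20 nearest detected genes to Rbx1 on chromosome 15 had a median of -0.44.

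Target genes gave the other side of the family. Of 19 detected antioxidant and heme genes, 7 passed the rule on the higher side, against 17% of all detected genes, and 3 on the lower side, against 23.6%. The median was 0.40, against -0.07. The 2 highest were Slc7a11, the cystine transporter gene, at 2.85 and Hmox1, heme oxygenase, at 2.72, and the 2 lowest were Me1 and Gpx2. Me1 had 13.9 on the NRF3 array and 15.0 on the GFP array, a difference of -1.06. Slc7a11 had 13.9 on the NRF3 array and 11.1 on the GFP array. Hmox1, the gene most tied to BACH1, had 17.8 on the NRF3 array and 15.1 on the GFP array, while Bach1 itself was higher by 0.36. Gpx2 had 5.49 on the NRF3 array, under the floor, and 6.48 on the GFP array, both below the neg controls' upper quartiles.

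The antioxidant core was found in 8 of the 15 genes of that list with a window, against 14.0% of all genes. Stretches around the core are printed for 2 genes that were higher, Gclm and Srxn1, and for a pair that share the same 9 letters, Prdx1 and Me1. The core is in capitals, on the gene's strand.
Gclm (chr3:122245413-122245441, plus strand): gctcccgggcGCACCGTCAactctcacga
Srxn1 (chr2:152105542-152105570, plus strand): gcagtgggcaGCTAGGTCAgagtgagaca
Prdx1 (chr4:116685456-116685484, plus strand): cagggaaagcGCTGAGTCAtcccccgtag
Me1 (chr9:86695902-86695930, minus strand): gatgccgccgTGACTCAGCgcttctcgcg

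Gclm, a subunit of the enzyme that starts glutathione synthesis, was higher by 2.38, and Srxn1, sulfiredoxin, by 2.25. The Srxn1 core lay after the start, with its leftmost base at position 29. Cores not printed were those of Txnrd1, with a difference of -0.79, Blvra, with -0.08, and Pgd, with 0.38. Prdx1, a peroxiredoxin, and Me1, malic enzyme, both hold TGACTCAGC, on opposite strands, a core that also contains the AP-1 element. Prdx1 differed by 0.40 and Me1 by -1.06. The same 9 letters thus stood in the promoter windows of genes with differences of both signs.

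Of 31 detected proteasome genes, 25 passed the rule on the higher side, against 17% of all detected genes, and 0 on the lower side, against 23.6%. The median was 0.95, against -0.07. The highest were Psmd8 at 2.33 and Psma5 at 2.22, and the lowest Psmb2 at 0.07 and Psmb7 at 0.40. Nfe2l1, the relative best known for these genes, differed by -0.10 on the same arrays. That is an RNA level, and the amount and processing of NRF1 protein were not measured. Of genes tied to NRF3 in human cancer cells, Pomp, the proteasome maturation protein gene, was higher by 0.61. Cpeb3, whose product is reported in human cells to hold back NRF1 translation, had 6.20 on both arrays, a difference of 0.00, close to the medians of the neg controls. Uhmk1, a kinase gene, differed by -0.70, where its 20 nearest detected genes on chromosome 1 had a median of -0.86. The lists were chosen with results of these arrays known, so their directions are no independent evidence.

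**Figure D4:**
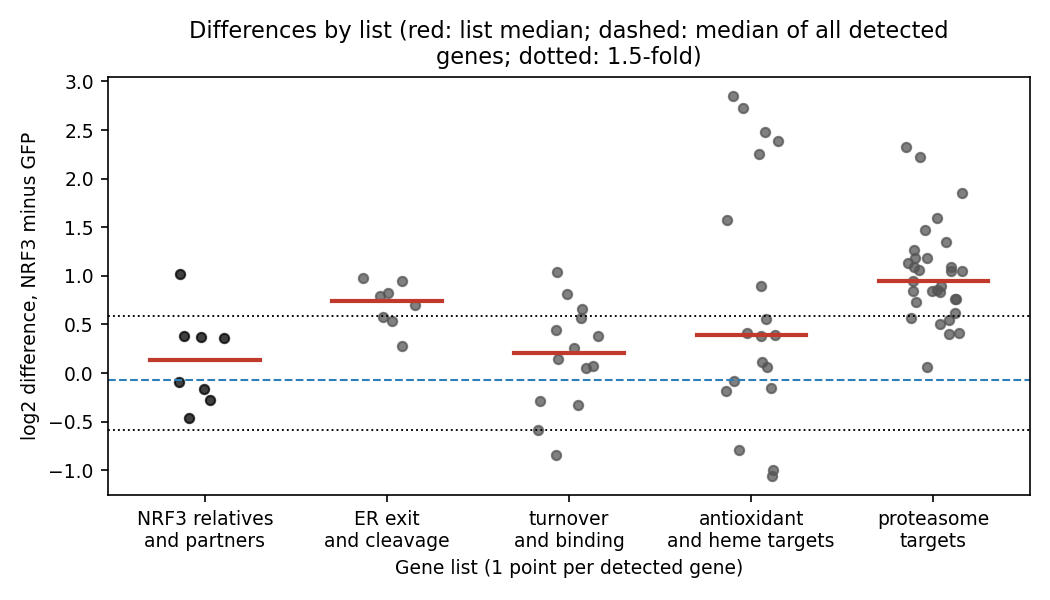
Log2 difference, NRF3 minus GFP, of each detected gene (1 point each) in the family without Nfe2l3 and in 4 lists of genes for its processing, turnover and targets. Red bars are list medians (0.13, 0.74, 0.20, 0.40 and 0.95, left to right), the dashed line is the median of all detected genes (-0.07) and the dotted lines mark 1.5-fold; the proteasome and extraction genes all lie above 0, and the antioxidant genes spread from -1.06 to 2.85.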

How the data were processed

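Total RNA (100 ng) from 2 populations of B16F10 cells was measured on 2 Affymetrix arrays, per the labels. Each probe set has a deposited log2 expression value, made by the authors with Affymetrix Expression Console and RMA, per the submitters' processing notes. The program version and background settings are not stated there. Probe sets were named through the platform annotation and RefSeq gene numbers (GRCm38.p6). A gene kept its probe set of highest mean. Differences are the NRF3 value minus the GFP value, computed with Python 3.11.15 and pandas 2.3.3. A gene was detected when its brighter value reached the median of named probe sets. Counts used 1.5-fold as a rule of size. No test was possible with 1 array per group, and the script was checked on simulated data. Named genes are all members, the 2 highest and 2 lowest detected genes of each pathway list, and the 3 nearest to Nfe2l3 in difference. For pathway lists of up to 6 genes, all with a named probe set are given. Cell type markers are given by count and range, and other genes were chosen after their values were seen. Members and lists were chosen with earlier results of these data known. Promoters came from RefSeq. Alternatives were other normalizations, floors, size rules, probe set means and subtraction of neighbouring genes.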

Additional observations from a re-analysis of the deposited data

How the results depend on the processing

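The difference of Nfe2l3 stayed between 4.11 and 4.36 in all 8 alternatives, and the median of the other members between 0.13 and 0.36. For Nfe2l3, the floors only filter genes and the gene has 1 probe set, so floors and probe set means could not change its value. Median centring gave 4.23, quantile normalization 4.17, removal of the trend with level 4.24 and subtraction of neighbouring genes 4.36. A floor at the 75th percentile of named probe sets left 3 genes detected, and one at the higher neg control median left 6. The count of genes at least 1.5-fold higher was then 1 and 1, Nfe2l3, because Maff was under the floor. Of all genes detected at these floors, 17.8% and 16.6% were at least 1.5-fold higher. Subtracting the median of the 20 nearest detected genes gave 4 higher (Keap1 and Mafg added) and 1 lower (Nfe2l2). The looser rule of 0.32 on the log2 scale gave 5 higher and 1 lower, against 28.2% and 36.1% of all detected genes. The other alternatives left both counts as they were. Among single members, Nfe2l1 alone changed sign, to 0.03 under median centring. Nfe2l2 ranged from -0.63 to -0.30, Keap1 from 0.39 to 0.80 and Maff from 0.91 to 1.47 where it was detected. No paired analysis was possible because each group had 1 array. Signal over background limits Maff, Mafk and Bach2, whose values lie at the level of control rows.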

Other observations

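The control rows named for background did not have a single level. Among the 23 control rows named by GC number, the lowest value, 2.65 on both arrays, was that of GC number 15. The highest was that of GC number 3, with 8.16 on the NRF3 array and 7.11 on the GFP array, a difference of 1.05, and at GC number 25 the values were 6.88 and 6.90 in the same order. The value was the same to the last digit on both arrays in 7 of these 23 rows and in 32 of 19572 named probe sets. The GC content of the probe sets was not analysed here.

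Target genes with and without an antioxidant core in the promoter window can be set side by side. Among the detected antioxidant and heme genes, the 7 with a core had a median difference of 0.38, and the 7 with a window and no core one of 0.11. Among the detected proteasome genes, the 3 with a core had a median of 0.95 and the 22 without one of 1.08. At least 1.5-fold higher were 3 with a core and 19 without, and 0 were lower in either group. No test was made of either split.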
